A study of Mus musculus with 10 samples.

Results

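The microRNA miR-455 was read in B-cells of mice that lacked an enhancer of the immunoglobulin heavy chain locus (IgH). Its 2 members, mmu-miR-455-3p and mmu-miR-455-5p, are 2 of the 1302 mature microRNA rows of a small RNA count table with 6968 rows in all. They were selected on the difference between the 3'RR-deficient and wt columns of this table, so that difference is a description here and carries no test. The stimulation of the cells and the ratio of both arms were not used for the choice and were tested.

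CD43- splenic B-cells came from wt mice, from mice without the 3'RR (the 3' regulatory region downstream of the IgH constant genes) and from mice without Eµ (the enhancer between the joining segments and the Cµ gene). All were adults in a 129 background. Both deletions are carried by the mouse and thus by every cell, and the Eµ model is an EµMAR deletion, which includes matrix attachment regions beside the enhancer. Per the labels, the cells of each group spent 2 days in culture, either in medium alone (non-stimulated) or with 5 µg/ml of lipopolysaccharide (LPS), and cells of 2 mice were pooled per library. The study's methods for its total RNA libraries describe cells before and after LPS stimulation. Should that hold for the small RNA libraries too, LPS and the time in culture cannot be told apart. The dose is that of the sample characteristics, while the protocol text writes mg in place of µg. The wt and 3'RR-deficient groups had 2 libraries in each condition and the Eµ-deficient group 1, which gives 10 libraries.

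MicroRNAs are cut from a hairpin that leaves one mature strand from its 5' arm and another from its 3' arm. One strand is usually kept by an Argonaute protein, which it guides to messenger RNAs through its seed (bases 2 to 8), while the partner is mostly degraded. Mir455 lies within Col27a1, the gene of a fibrillar collagen of cartilage. miR-455 is known from cartilage and brown fat and is not a classical B-cell microRNA.

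On the mm10 build named for the table, mmu-miR-455-5p spans 63256867 to 63256888 and mmu-miR-455-3p spans 63256904 to 63256924 of chromosome 4, both on the plus strand. GENCODE M21, an annotation of the same build, places the Mir455 hairpin at 63256851 to 63256932. It is intronic: it lies between exons 10 and 11 of a protein-coding Col27a1 transcript, in an intron of 2318 bases (63254742 to 63257059), and overlaps 0 annotated exons of the gene. The mature strands as listed by RefSeq (GRCm38.p6) follow, with the seed in capitals, since the seed and the base composition of each strand are referred to beside the counts.
mmu-miR-455-5p: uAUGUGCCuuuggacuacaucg
mmu-miR-455-3p: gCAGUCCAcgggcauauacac
The seed of the 3p strand was shared by 0 other mature mouse microRNAs of the RefSeq table. That of the 5p strand was shared by 1, which had between 0 and 33 counts per library.
mmu-miR-5129-3p: aAUGUGCCugugcaucucuucc
The GC content of the 3p strand was 57.1% and that of the 5p strand 45.5%, against a median of 52.2% over the mature microRNAs with a sequence.

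The libraries held between 3482540 and 18144016 counts, of which 51.4% to 82.1% fell on microRNAs. The lymphoid microRNA miR-150-5p was abundant in all 10 (7077 to 56331 CPM), while miR-223-3p, which marks myeloid cells, was also read in all 10 (76.2 to 4939 CPM). CPM are counts scaled per 1000000 microRNA reads with TMM library factors. The second non-stimulated libraries of wt and 3'RR-deficient cells stood apart from the first ones in a shared way: across 988 features their replicate differences correlated with r = 0.595, against 0.097 for the LPS libraries. These second libraries were also the shallowest of the 10, with 3482540 (wt) and 3756662 (3'RR-deficient) counts against 15073103 and 11915044 in the first ones. They had 744 and 811 microRNA features detected, against 1119 and 1073. The part of depth in the shared difference was not tested. The LPS tests, the arm ratio, the list calls and the correlations with miR-455-3p are also given without both second non-stimulated libraries.

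mmu-miR-455-3p was the main strand, and it was higher in each 3'RR-deficient library than in each wt library of the same condition. Without LPS its level was 86.7 and 161.8 CPM in wt replicates 1 and 2 and 299.6 and 365.0 CPM in the 3'RR-deficient ones. In LPS-stimulated cells it was 23.8 and 21.8 CPM (wt) and 112.6 and 143.6 CPM (3'RR-deficient). The groups did not overlap in either condition. The counts behind these 8 values ran from 114 to 2268.

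As ratios of same-numbered libraries, the 3'RR-deficient level of miR-455-3p was 3.46-fold (exact 95% interval from the counts 3.18 to 3.76) and 2.26-fold (2.03 to 2.51) that of wt without LPS. With LPS it was 4.74-fold (3.86 to 5.86) and 6.58-fold (5.52 to 7.88). These intervals cover counting error only and not the spread between libraries. Amplified copies of a molecule were counted as separate reads, so the intervals may be too narrow for counting error as well. The ratio of the group means was 2.67 without and 5.62 with LPS. These are the columns that selected the microRNA: of the 988 microRNA features that passed the filter on low counts, 1.92% were higher in 3'RR-deficient than in wt libraries without overlap in both conditions, and miR-455-3p is one of them by choice.

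**Figure D1:**
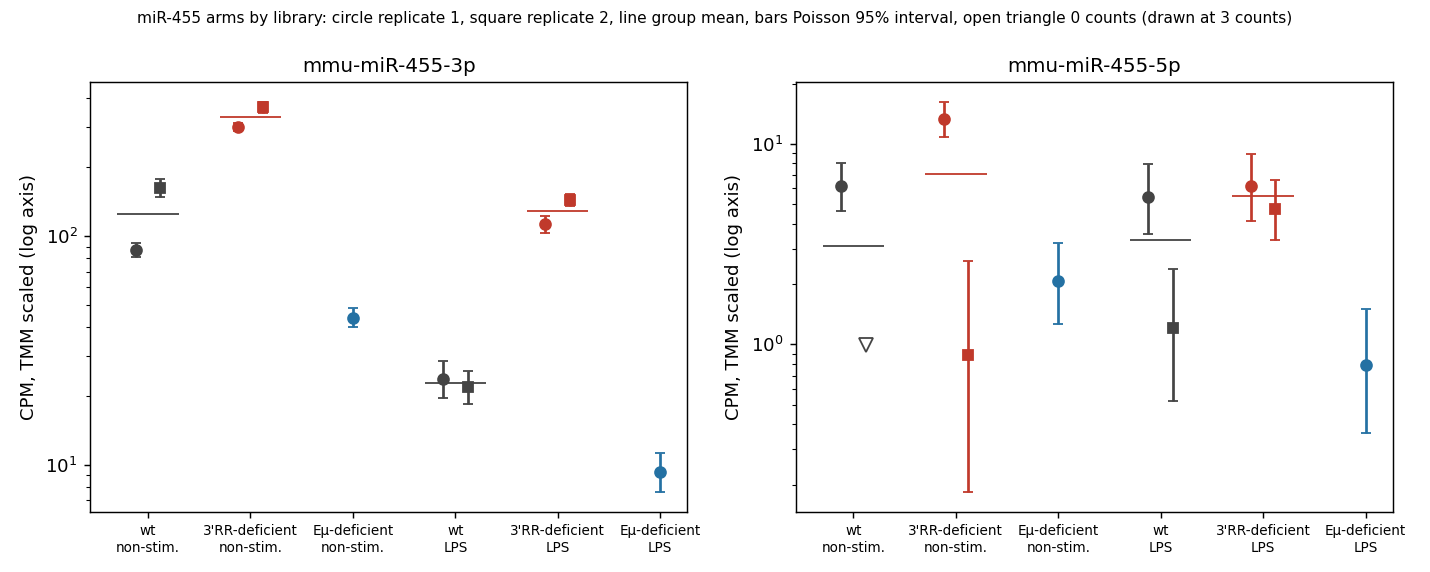
Level of mmu-miR-455-3p (left) and mmu-miR-455-5p (right) in each library, in CPM on a log axis, by genotype and condition. Circles are first and squares second replicates with Poisson 95% intervals, lines are group means of 2 libraries, and the open triangle is a library with 0 counts drawn at 3 counts. The 3p strand runs from 9.28 CPM in LPS-stimulated Eµ-deficient cells to 365.0 CPM in non-stimulated 3'RR-deficient cells, and the 5p strand stays at or below 13.3 CPM.

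The Eµ-deficient libraries held the least miR-455-3p of their condition. How large a share of all features was also lowest in these libraries was not counted. The level of miR-455-3p was 44.0 CPM (425 counts) without LPS and 9.28 CPM (106 counts) with LPS. Without LPS both wt libraries lay above it, by 1.97-fold (1.75 to 2.22) and 3.68-fold (3.22 to 4.20). With LPS they did so by 2.56-fold (1.95 to 3.37) and 2.35-fold (1.82 to 3.05). With 1 library per condition this difference has no replicate check, and the wt libraries are the ones the choice of the microRNA rested on. The Eµ-deficient libraries also had the lowest microRNA shares (60.2% without and 51.4% with LPS) and the highest summed levels of the myeloid and erythroid markers of their condition. Their myeloid sum was 5032 CPM without and 512.3 CPM with LPS, against 478.9 to 1989.8 and 82.4 to 146.5 CPM in the other libraries. Their erythroid sum was 7919 and 3569.6 CPM, against 2499.9 to 6581 and 138.1 to 955.1 CPM, and their stromal sum was 1093 and 1379 CPM, against 274.2 to 1179 and 45.3 to 95.2 CPM. The part of these differences in the level of miR-455-3p was not tested.

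Over the 6 groups the order of miR-455-3p was the following. Non-stimulated 3'RR-deficient cells were highest, at 332.3 CPM ± 46.3 (SD, n = 2). LPS-stimulated 3'RR-deficient cells (128.1 ± 21.9, SD, n = 2) and non-stimulated wt cells (124.3 ± 53.2, SD, n = 2) came next and did not differ beyond their spread. Below them were non-stimulated Eµ-deficient cells, LPS-stimulated wt cells (22.8 ± 1.36, SD, n = 2) and LPS-stimulated Eµ-deficient cells. By rank, which no scaling changes, it stood between 94 of 650 (3'RR-deficient non-stimulated replicate 2) and 326 of 851 (Eµ-deficient with LPS) detected mature microRNAs.

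The next comparison asked whether miR-455 responds to LPS, the polyclonal activator that induces class switching in B-cells. mmu-miR-455-3p fell by 1.98 on the log2 scale (SE 0.40, 3.93-fold, adjusted p = 0.00333 by edgeR's quasi-likelihood test with genotype as a term, 10 libraries). It was lower in all 5 LPS libraries than in every non-stimulated library of the same genotype. Across the tested features 6.98% passed at an adjusted p under 0.05 in this direction and 11.8% in the other, and 9.31% were lower with LPS without overlap in each genotype. Among the 69 features called lower, miR-455-3p ranked 45 by size, and the median log2 change of those features was -2.36. The calls numbered 117 higher and 69 lower. Mature microRNAs alone (801 features) gave 88 higher and 66 lower, and mature microRNAs with a sequence after a GC correction (658 features) gave 70 higher and 92 lower, so this last fit differs in its features as well as in the correction. The median over all 988 features was 0.09, and -0.01 with total count scaling, where miR-455-3p changed by -2.18.

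The LPS libraries were lower in each genotype. In wt cells the fall of miR-455-3p was 3.65-fold (2.99 to 4.48) between the first and 7.41-fold (6.14 to 8.98) between the second replicates. In 3'RR-deficient cells it was 2.66-fold (2.42 to 2.94) and 2.54-fold (2.34 to 2.76), and in Eµ-deficient cells 4.75-fold (3.83 to 5.93). These ratios join libraries of the same number, which were not taken as pairs. With the numbers of the LPS libraries exchanged, the falls were 6.81-fold and 3.97-fold in wt and 3.24-fold and 2.09-fold in 3'RR-deficient cells. Whether the responses of wt and 3'RR-deficient cells differ was not tested, because these columns chose the microRNA. Fitted in wt libraries alone the log2 change was -2.59 (adjusted p = 0.14), and in 3'RR-deficient libraries alone -1.59 (adjusted p = 0.211), so with 2 libraries against 2 the call was lost in both. Without both second non-stimulated libraries it was -1.76 (adjusted p = 0.000493), and without both first ones of wt and 3'RR-deficient cells -2.48 (adjusted p = 0.000737).

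**Figure D2:**
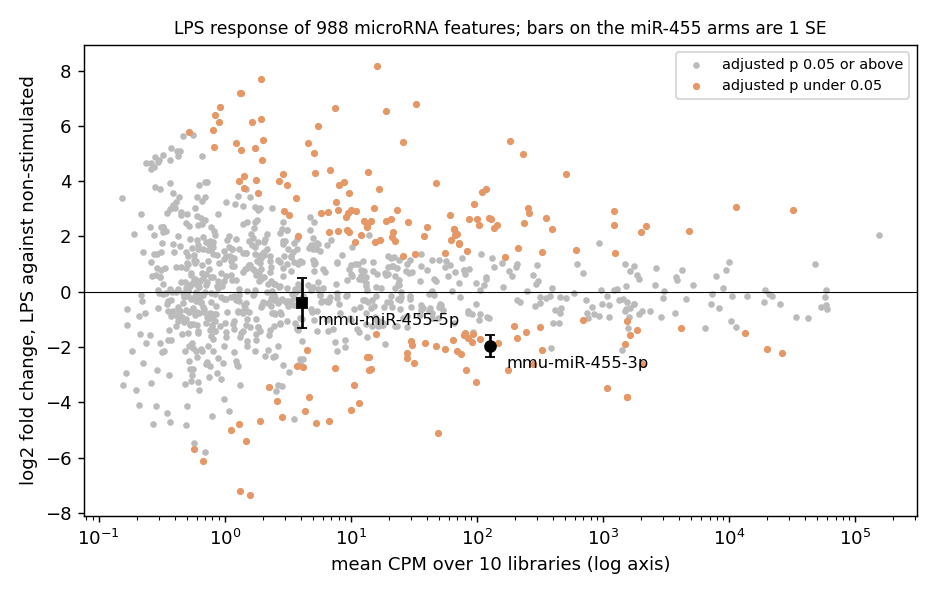
Log2 fold change with LPS against the mean level in CPM (log axis) for the 988 tested microRNA features. Orange points passed an adjusted p under 0.05, grey points did not, and black symbols with 1 SE are the miR-455 strands. mmu-miR-455-3p lies among the orange points at -1.98 and mmu-miR-455-5p among the grey ones at -0.41.

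Several markers of other cells were also called lower with LPS. Of the 8 listed stromal microRNAs 6 were called lower and 0 higher, with a list median of -2.75 against 0.09 for all features. In Eµ-deficient cells, with 1 library per condition, the stromal sum did not fall: it was 1093 CPM without and 1379 CPM with LPS. Their myeloid and erythroid sums, given above, were lower with LPS. Both strands of the myeloid miR-223 were called lower (-3.49 for miR-223-3p and -2.58 for miR-223-5p), as was 1 of 3 erythroid microRNAs (miR-486a-5p, -3.83). The 2 endothelial ones gave 0 calls (-0.57 for miR-126a-3p, adjusted p = 0.487, and -0.13 for miR-126a-5p, adjusted p = 0.931, edgeR). Of 5 lymphoid microRNAs, miR-150-5p (-2.21) and miR-181a-5p (-2.07) were called lower and miR-155-5p (2.95), which B-cell activation induces, higher. In bulk RNA, fewer cells of a type and less RNA per cell cannot be told apart, and the part of these cells in the fall of miR-455-3p was not tested. Their summed levels in wt and 3'RR-deficient cells were as follows. The stromal sum was 345.7 to 1179 CPM (wt) and 274.2 to 435.2 CPM (3'RR-deficient) without LPS, and 54.4 to 95.2 CPM (wt) and 45.3 to 52.0 CPM (3'RR-deficient) with it. The erythroid sum was 2499.9 to 4679 CPM (wt) and 2861 to 6581 CPM (3'RR-deficient) without LPS, and 138.1 to 339.9 CPM (wt) and 401.6 to 955.1 CPM (3'RR-deficient) with it. The myeloid sum was 478.9 to 1989.8 CPM (wt) and 1042 to 1497 CPM (3'RR-deficient) without LPS, and 82.4 to 146.5 CPM (wt) and 109.3 to 111.6 CPM (3'RR-deficient) with it. With LPS the 3'RR-deficient libraries were thus above wt in the erythroid sum, as for miR-455-3p, and below wt in the stromal sum. They were within the wt range in the myeloid sum, and without LPS the groups overlapped in each of these sums. These orders rest on 2 libraries per group, were not tested and lack the share of all features ordered alike. Between 3'RR-deficient and wt cells edgeR called 0 of the listed erythroid, stromal and myeloid microRNAs. Of the 8 stromal microRNAs, miR-145a-5p and miR-214-3p were at 0 in both 3'RR-deficient LPS libraries and miR-199a-5p in 1 of them, while the other 5 were read in both, led by miR-143-3p (30.3 and 26.3 CPM). In both wt LPS libraries miR-214-3p and miR-199a-5p were at 0 as well, and miR-145a-5p was at 1.67 and 0.151 CPM. The part of these cells in the genotype difference was not tested. Without both second non-stimulated libraries the LPS calls numbered 260 in place of 186 (11.2% of 955 features lower and 16.0% higher), with 6 of 8 stromal, 2 of 2 myeloid, 2 of 3 erythroid and 1 of 2 endothelial microRNAs lower, and 3 lymphoid ones lower and 1 higher.

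mmu-miR-455-5p, the minor strand, had between 0 and 101 counts per library and correlated with the other strand at r = 0.157 (log2 CPM, 10 libraries), or 0.86 over the 8 libraries without both second non-stimulated ones, as a description. Without LPS its level was 6.17 and 0 CPM in wt replicates 1 and 2, 13.3 and 0.888 CPM in the 3'RR-deficient ones and 2.07 CPM in the Eµ-deficient one. LPS-stimulated libraries had 5.42 and 1.20 CPM (wt), 6.19 and 4.75 CPM (3'RR-deficient) and 0.788 CPM (Eµ-deficient). The wt and 3'RR-deficient libraries overlapped in both conditions, so a higher level in each 3'RR-deficient library, on which miR-455 was chosen, describes the 3p strand and not the 5p strand. Its ratio between same-numbered libraries was 2.16 (1.54 to 3.06) for the first non-stimulated pair and 1.14 (0.646 to 2.03) and 3.94 (1.80 to 9.83) for the LPS pairs. In the second non-stimulated pair both libraries were at or under the floor of 3 counts, so no ratio is given.

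The LPS change of miR-455-5p was -0.41 on the log2 scale (SE 0.92, adjusted p = 0.811, edgeR), with an approximate 95% interval from -2.21 to 1.38. Falls and rises of more than 2-fold thus lie within its error. The direction rested on the first non-stimulated libraries: without those of wt and 3'RR-deficient cells the value was 1.76, and without the second ones -1.15, neither past the threshold.

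The 5p strand made up a small share of the miR-455 reads. In non-stimulated cells it was 6.65% (Wilson 95% interval 5.14 to 8.56) in wt replicate 1, 4.26% (3.52 to 5.15) in 3'RR-deficient replicate 1 and 4.49% (2.93 to 6.84) in Eµ-deficient cells. In wt replicate 2 it was 0 of 486 reads, which allows a share of up to 0.617% by the floor of 3 counts (Wilson upper bound 0.784%), and in 3'RR-deficient replicate 2 it was 0.243% (0.0826 to 0.711). With LPS the share was 18.6% (13.0 to 25.8) and 5.23% (2.67 to 9.98) in wt, 5.21% (3.63 to 7.43) and 3.20% (2.31 to 4.42) in 3'RR-deficient and 7.83% (4.17 to 14.2) in Eµ-deficient cells. The second non-stimulated libraries of both genotypes were below the other 8, while wt LPS replicate 1 was above them all.

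**Figure D3:**
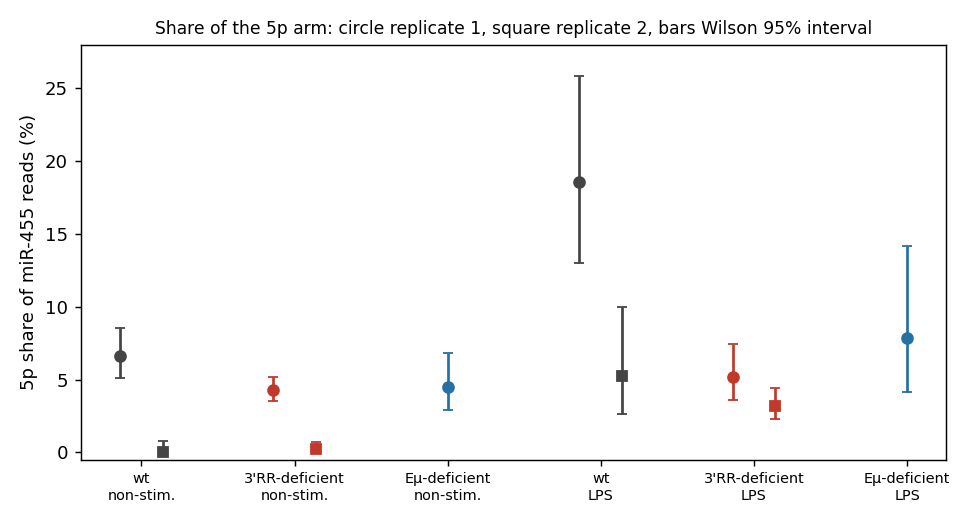
Share of the 5p strand among the miR-455 reads of each library, in percent, with Wilson 95% intervals. Circles are first and squares second replicates. Both second non-stimulated libraries lie under 1%, wt LPS replicate 1 lies at 18.6%, and the other 7 libraries lie between 3.20% and 7.83%.

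The log2 ratio of the 3p to the 5p strand, with 0.5 counts added to each, was 6.21 ± 2.79 (SD, n = 5) in the non-stimulated libraries, against 3.75 ± 1.04 (SD, n = 5) in the stimulated ones. The difference of -2.46 did not pass (exact permutation test over 10 libraries, two-sided, p = 0.127, smallest possible p = 0.00794). Its size depends on the counts added, since the 5p strand had 0 and 3 counts in the second non-stimulated libraries: it was -2.25 with 1 and -2.05 with 2 counts added. Without both second non-stimulated libraries it was -0.47 (exact permutation p = 0.571, 3 against 5 libraries), with ratios of 3.80 to 4.48 without and 2.11 to 4.90 with LPS.

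The non-stimulated replicates also differed in the arm ratio of other hairpins. The log2 ratio of 3p to 5p (on log2 CPM with a prior count of 2) was higher in replicate 2 than in replicate 1 by a median of 0.31 in wt and 0.36 in 3'RR-deficient cells over 218 hairpins with both strands tested. For miR-455 the difference was 5.34 and 3.81, but with 0 and 3 counts of the 5p strand in replicate 2 these sizes depend on the prior count and are no bounds. Over 163 hairpins with both sequences the difference correlated with the GC content of the 3p minus the 5p strand at r = 0.448 (wt) and 0.449 (3'RR-deficient) without LPS, and at -0.07 and -0.03 in the LPS groups. Hairpins of one library share its depth and are not replicates, and the part of base composition in the miR-455 difference was not tested. The 3p strand of miR-455 is the GC-richer one by 11.7 percentage points. With each library corrected for GC content over mature microRNAs with a sequence, an alternative chosen after the data were seen, the LPS change of miR-455-3p was -1.86 (adjusted p = 0.000467).

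**Figure D4:**
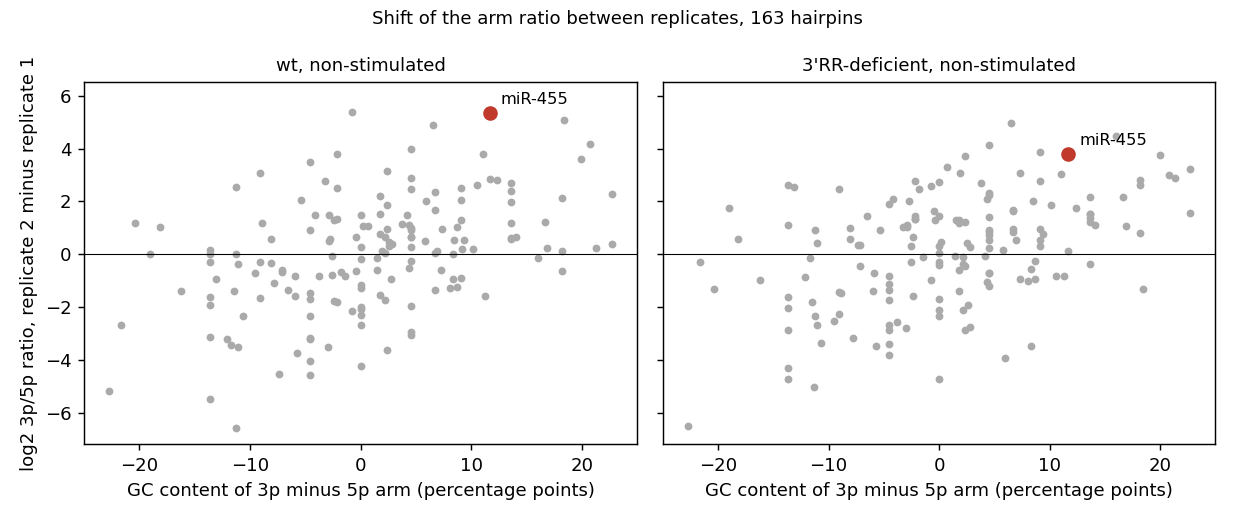
Log2 ratio of 3p to 5p in replicate 2 minus that in replicate 1 of non-stimulated wt (left) and 3'RR-deficient (right) cells, against the GC content of the 3p minus the 5p strand in percentage points. Each point is 1 of 163 hairpins. miR-455 (red) is drawn at 5.34 and 3.81, values that depend on the prior count because its 5p strand had 0 and 3 counts in replicate 2.

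No other small RNA row was read inside Col27a1: the 2 rows of any class within this gene were the miR-455 strands. Of the 6 microRNA rows within 10 Mb on chromosome 4, 3 passed the filter, and all 3 belong to Mir32, a hairpin within Tmem245. Their log2 differences of 3'RR-deficient minus wt were -1.05 (SE 0.83) for miR-32-5p, -0.24 (SE 0.56) for miR-32-3p and -0.93 (SE 0.76) for the hairpin row, each with an adjusted p of 1. With LPS the hairpin row rose by 2.89 (SE 0.72, adjusted p = 0.0112), while miR-32-5p (0.47) and miR-32-3p (0.95) did not pass.

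Of the 8 tested microRNAs known from cartilage or brown fat, 2 were called with LPS, against 18.8% of all features in either direction. miR-140-3p, the main strand of a hairpin in Wwp2 that is known from cartilage, was far more abundant (2522 to 12808 CPM). Neither miR-140 strand passed with LPS (-0.46, adjusted p = 0.481, and -0.18, adjusted p = 0.88, edgeR) or between 3'RR-deficient and wt libraries (-0.06 and -0.33). Without both second non-stimulated libraries both strands were called lower with LPS, as was miR-203-3p of the brown fat list, so the cartilage calls depend on those libraries. The H19 microRNA miR-675, also on the cartilage list, was not analysed here. Of 6 microRNAs linked to brown fat, miR-182-5p rose with LPS by 2.83 (SE 0.56, adjusted p = 0.00311), from 22.6 to 111.1 CPM without to 240.0 to 812.4 CPM with LPS. miR-196a-5p was called lower, with 0.833 CPM or less in all LPS libraries. For 3'RR-deficient against wt cells, edgeR called 0 of the 30 tested rows of these lists, the marker lists and the neighbourhood (1 at an unadjusted p under 0.05, the erythroid miR-486a-5p, higher by 1.51, and DESeq2 called 0), against 0.101% of all features, and the medians were -0.20 (cartilage) and 0.08 (brown fat) against -0.06 over all.

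Among the 264 other mature microRNAs with a mean of at least 20 CPM, the 5 whose log2 CPM followed miR-455-3p most closely over the 10 libraries were miR-351-5p (Pearson's r = 0.974), miR-1981-3p (0.944), miR-139-5p (0.913), miR-150-3p (0.895) and miR-1964-3p (0.882). The median over the 264 was -0.06. Without both second non-stimulated libraries these 5 had an r of 0.852 to 0.97 over 8 libraries. These values are descriptions, since the libraries share their genotype, condition and depth. None of the 5 shares the seed of either miR-455 strand, as their RefSeq sequences (seed in capitals) show.
mmu-miR-351-5p: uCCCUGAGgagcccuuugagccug
mmu-miR-1981-3p: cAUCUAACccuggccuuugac
mmu-miR-139-5p: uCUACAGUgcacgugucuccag
mmu-miR-150-3p: cUGGUACAggccugggggauag
mmu-miR-1964-3p: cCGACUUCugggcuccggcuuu
They lie on chromosomes X (miR-351-5p), 1 (miR-1981-3p) and 7 (the other three), and thus away from Mir455.

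The closest, miR-351-5p, had 92.7 and 102.9 CPM in wt and 169.2 and 151.0 CPM in 3'RR-deficient non-stimulated cells. In LPS-stimulated cells it had 30.2 and 28.6 CPM (wt) and 73.9 and 78.8 CPM (3'RR-deficient). Without Eµ the levels were 63.2 CPM without and 16.5 CPM with LPS, the lowest of their condition as for miR-455-3p. Since it was picked for following miR-455-3p, its order by genotype comes with that choice and is a description. miR-139-5p, the most abundant of the 5, ran from 217.6 CPM in Eµ-deficient cells with LPS to 3323 CPM in 3'RR-deficient cells without.

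**Figure D5:**
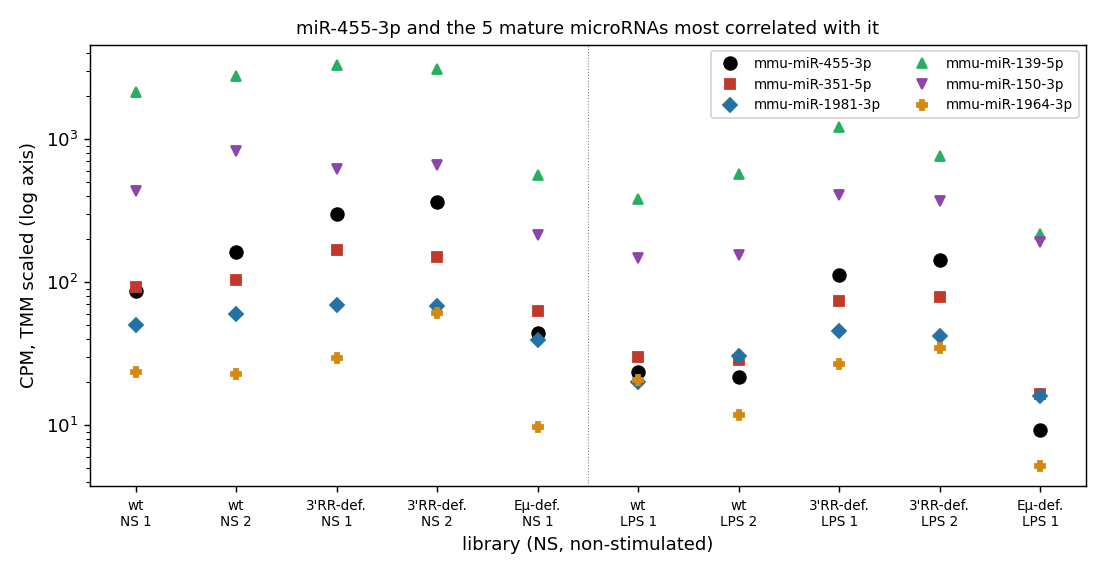
Level in CPM (log axis) of mmu-miR-455-3p (black) and of the 5 mature microRNAs most correlated with it, in each of the 10 libraries, non-stimulated ones (NS) on the left and LPS on the right of the dotted line. All 6 are lowest in the LPS-stimulated Eµ-deficient library except miR-150-3p, which is lowest in wt LPS replicate 1.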

How the data were processed

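The authors deposited 1 table of raw read counts per small RNA feature for 10 libraries. The submitters' processing notes name cutadapt 1.2.1, Bowtie2 and mm10. The counting program and its treatment of multi-mapping reads are not given in the sources used here. Rows of the microRNA class (2015, of which 1302 are mature) were fitted with edgeR 4.0.16 in R 4.3.3: TMM, filterByExpr by group, additive terms for genotype and stimulation, quasi-likelihood F-test (two-sided) and Benjamini-Hochberg adjustment over 988 features, with calls at an adjusted p under 0.05. Because a group of 1 library sets the filter, features seen in 1 library could pass. The edgeR fit of the LPS change and the GC correction were tested on simulated data, while the genotype differences and the arm test were not. Arm ratios were compared by exact permutation (scipy 1.17.1). The methods for the total RNA libraries describe separate pools of mice for each genotype. For the small RNA libraries the labels state pools of 2 mice and number the libraries, but do not say that those of a group came from separate mice, so p-values measure the spread between these libraries, which may be technical.

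The members, the lists of marker, cartilage and brown fat microRNAs, and the likeness rule (the 5 highest Pearson correlations with miR-455-3p among mature rows of at least 20 CPM) were chosen with earlier results of these data known. The lists named stromal, endothelial, erythroid, myeloid and lymphoid microRNAs. RefSeq gave a sequence for 83.9% of the mature rows. Alternatives were DESeq2 1.42.0 size factors, total count scaling, no filter, 10 CPM in 2 libraries, the DESeq2 Wald test, all feature classes, mature microRNAs alone, the 8 wt and 3'RR-deficient libraries alone, a replicate block, 1 or 2 counts added per arm, and each library left out in turn.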

Additional observations from a re-analysis of the deposited data

How the results depend on the processing

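The fall of miR-455-3p with LPS kept its direction under all 25 alternatives and its call in 23, with log2 changes from -2.59 to -1.59. The exceptions were the wt libraries alone (-2.59) and the 3'RR-deficient libraries alone (-1.59). Over the alternatives named in the processing its adjusted p lay between 9.43e-07 and 0.0184. The change of miR-455-5p passed in 0 of 24 fits and turned positive with the replicate block (0.78), with that block and the GC correction (0.63), without both first non-stimulated wt and 3'RR-deficient libraries (1.76) and in wt libraries alone (0.15), and leaving out 1 library gave -1.04 to 0.31. It was positive without wt (0.095) and 3'RR-deficient (0.31) non-stimulated replicate 1. No fit was made for it with 10 CPM in 2 libraries, where it did not pass the filter. The fit with the LPS numbers exchanged, used below for its count of calls, is not among these alternatives.

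The number of features called for LPS, 186, was 374 with all feature classes (4554 features tested), 7 in wt and 15 in 3'RR-deficient libraries alone, and 107 to 194 with 1 library left out (107 when the second wt library with LPS was omitted, 117 when the second 3'RR-deficient one was). With wt and 3'RR-deficient libraries alone it was 157, with the replicate block 156 and with the LPS numbers exchanged, chosen after the data were seen, 222. The labels do not say what a replicate number marks. Replicate differences correlated between wt and 3'RR-deficient cells at 0.595 without and 0.097 with LPS, and between non-stimulated and LPS libraries at -0.06 in wt and -0.175 in 3'RR-deficient cells, so the numbers were not taken to pair the samples of the LPS comparison. The block changed no call of miR-455. The arm ratio kept its sign and passed in 0 of 15 alternatives (-3.06 to -0.47, smallest exact permutation p = 0.0625, that of the 5 pairs, the smallest they allow). Counts of 0 to 101 limit the 5p strand.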
